A study of Homo sapiens with 8 samples.

Results

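H3K27me3 peaks were described around the starts of 10 genes that encode secreted signals of embryonic patterning or their antagonists: the hedgehog ligands SHH, IHH and DHH, the bone morphogenetic protein (BMP) ligands BMP2, BMP4, BMP7 and GDF6, the fibroblast growth factor FGF8, and the BMP antagonists NOG and CHRD. The genes were chosen by name, and peaks were read within 5 kb and within 25 kb of starts given to 1 kb on GRCh37. All 10 were found, and 60716 windows of 50 kb and 303618 windows of 10 kb, tiled over chromosomes 1 to 22 and X, stood for the rest of the genome. The cells were MOLM14, an established human acute myeloid leukaemia line whose FLT3, a receptor tyrosine kinase, has an internal tandem duplication. They received AC220 (quizartinib, a FLT3 inhibitor) or its solvent DMSO for 24 h, with 2 immunoprecipitated libraries of each and Drosophila S2 cells spiked into every sample. The 4 input samples of the series were not used here. The pair of libraries numbered 1 is set 1 and the pair numbered 2 is set 2. The labels do not say whether libraries of a treatment were grown apart, so every p-value reflects only how far these libraries differ, a spread that can be technical.

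H3K27me3 is written by the Polycomb complex PRC2 and is typical of developmental genes that a cell keeps silent, often over CpG-rich starts. Hedgehog ligands act through the receptor Patched and the transducer Smoothened on the GLI transcription factors. BMP ligands act through serine/threonine kinase receptors and SMAD proteins, and noggin (NOG) and chordin (CHRD) bind BMP ligands outside the cell and block them. FGF8 acts through FGF receptor tyrosine kinases in limb, brain and heart development.

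The DNA at the starts is shown because a peak lay over or beside it in most libraries and because the members differ in CpG content there. RefSeq promoters (GRCh38.p14, 250 bases before the start to 50 after it) were matched by symbol for 5 of the 10 members, with 3 alternative starts for BMP4, of which the one at the highest position is printed. Promoters on the chromosome of GDF6 were left out of the matching, so GDF6 could not be among the 5. The printed promoters are named by gene and not placed on the peaks, whose build is GRCh37. Each is written 5′ to 3′ on the strand of its gene, with every CG dinucleotide, the same letters on either strand, in capitals.
SHH, chr7:155812414-155812713, minus strand: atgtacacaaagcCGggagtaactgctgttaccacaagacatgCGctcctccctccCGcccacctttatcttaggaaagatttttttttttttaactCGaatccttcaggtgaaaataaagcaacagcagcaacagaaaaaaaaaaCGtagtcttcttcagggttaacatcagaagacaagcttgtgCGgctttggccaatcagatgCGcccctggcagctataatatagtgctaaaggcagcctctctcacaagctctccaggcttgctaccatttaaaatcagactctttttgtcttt
IHH, chr2:219060872-219061171, minus strand: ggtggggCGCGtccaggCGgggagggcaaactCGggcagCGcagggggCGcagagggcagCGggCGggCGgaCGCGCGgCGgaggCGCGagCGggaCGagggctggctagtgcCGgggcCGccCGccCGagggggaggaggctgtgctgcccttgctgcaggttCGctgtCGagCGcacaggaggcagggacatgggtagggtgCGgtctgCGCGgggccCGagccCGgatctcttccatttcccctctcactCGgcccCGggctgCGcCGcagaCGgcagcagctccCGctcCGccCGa
DHH, chr12:49094752-49095051, minus strand: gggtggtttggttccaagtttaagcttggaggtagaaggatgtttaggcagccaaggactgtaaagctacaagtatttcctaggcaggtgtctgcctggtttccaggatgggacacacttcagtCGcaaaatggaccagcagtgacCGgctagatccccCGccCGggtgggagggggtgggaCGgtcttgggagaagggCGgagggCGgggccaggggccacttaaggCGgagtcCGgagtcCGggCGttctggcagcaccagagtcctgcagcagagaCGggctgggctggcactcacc
BMP4, chr14:53955001-53955300, minus strand: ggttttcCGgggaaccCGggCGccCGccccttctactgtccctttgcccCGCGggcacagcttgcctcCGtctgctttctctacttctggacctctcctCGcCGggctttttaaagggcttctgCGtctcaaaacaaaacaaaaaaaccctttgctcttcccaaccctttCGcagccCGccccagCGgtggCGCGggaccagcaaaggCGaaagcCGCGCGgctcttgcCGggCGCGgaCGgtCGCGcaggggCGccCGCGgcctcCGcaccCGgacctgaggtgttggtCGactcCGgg
CHRD, chr3:184379804-184380103, plus strand: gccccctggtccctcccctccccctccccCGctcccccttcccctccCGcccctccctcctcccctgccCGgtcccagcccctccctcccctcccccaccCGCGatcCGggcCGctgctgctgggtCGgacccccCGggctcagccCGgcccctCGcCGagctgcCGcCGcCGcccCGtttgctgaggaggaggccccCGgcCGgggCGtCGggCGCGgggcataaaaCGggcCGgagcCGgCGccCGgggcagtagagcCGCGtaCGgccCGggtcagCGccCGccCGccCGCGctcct

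The 300 bases hold 7 CG dinucleotides at SHH, 37 at IHH, 12 at DHH, 32 at BMP4 and 36 at CHRD. The other BMP4 starts hold 23 and 30. Over all 35116 promoters of the table the median was 14, and 63.2% had at least as many as SHH, 53.1% as many as DHH and 11.3% as many as IHH. The SHH promoter, at 43.3% G plus C, and the DHH promoter are thus the CG-poor ones of the 5. A peak nevertheless lay over the SHH start in all 4 libraries, as it did at IHH, BMP4 and CHRD. At DHH a peak lay over the start in AC220 1, AC220 2 and DMSO 2. It passed the start by 0.232, 0.621 and 0.53 kb, within the 1 kb to which starts are given. In DMSO 1 the nearest peak ended 2.04 kb away. The AC220 1 peak there was a weak one, and 87.5% of its list had a smaller q-value.

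The lists differ between sets more than between treatments, which bears on every value that follows. Over the 23 chromosomes examined, the AC220 1 peaks covered 192 Mb against 232 Mb for DMSO 1, and the AC220 2 peaks 496 Mb against 590 Mb for DMSO 2. Set 2 thus covered 2.59 times the length of set 1 with AC220 and 2.55 times with DMSO, and the length with AC220 differed from that with DMSO by -17.2% in set 1 and by -15.9% in set 2. The lists hold no read counts, so depth is unknown and no amount of mark was measured. Each library is a bulk of cells, so fewer marked cells and less mark per cell cannot be told apart.

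The mark lay at most of these starts under both treatments. A peak covered the start of 7 of 10 members in AC220 1, 7 in AC220 2, 6 in DMSO 1 and 7 in DMSO 2. In all 4 libraries a peak covered the start of 6 members: SHH, IHH, BMP4, BMP7, GDF6 and CHRD. The share of other gene starts inside a peak was not computed, so these counts have no background of starts. FGF8 had a peak that stopped short of its start by 0.526 to 0.857 kb in every library, a distance within the 1 kb to which starts are given. The BMP7 peak passed its start by only 0.153 kb in AC220 1 and 0.035 kb in DMSO 1, also within that 1 kb. DHH was the only member whose start was covered in some libraries and not in all. Where its peak passed the start, it did so by 0.232 to 0.621 kb, within that 1 kb too. BMP2 and NOG had none at the start. The median covered share, the percentage of bases inside a peak, was 63.9% in AC220 1 against 56.7% in DMSO 1 within 5 kb of the 10 starts, and 81.8% in AC220 2 against 72.6% in DMSO 2. Within 25 kb the medians were 25.1% in AC220 1 against 33.2% in DMSO 1, and 61.8% in AC220 2 against 55.4% in DMSO 2. The members' means within 25 kb were 31.7% in AC220 1 against 34.5% in DMSO 1, and 52.3% in AC220 2 against 51.8% in DMSO 2. Tiled 50 kb windows averaged 6.32% in AC220 1 against 7.63% in DMSO 1, and 16.3% in AC220 2 against 19.4% in DMSO 2. The medians of those windows were 0% in AC220 1 and DMSO 1, 1.65% in AC220 2 and 2.98% in DMSO 2.

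**Figure D1:**
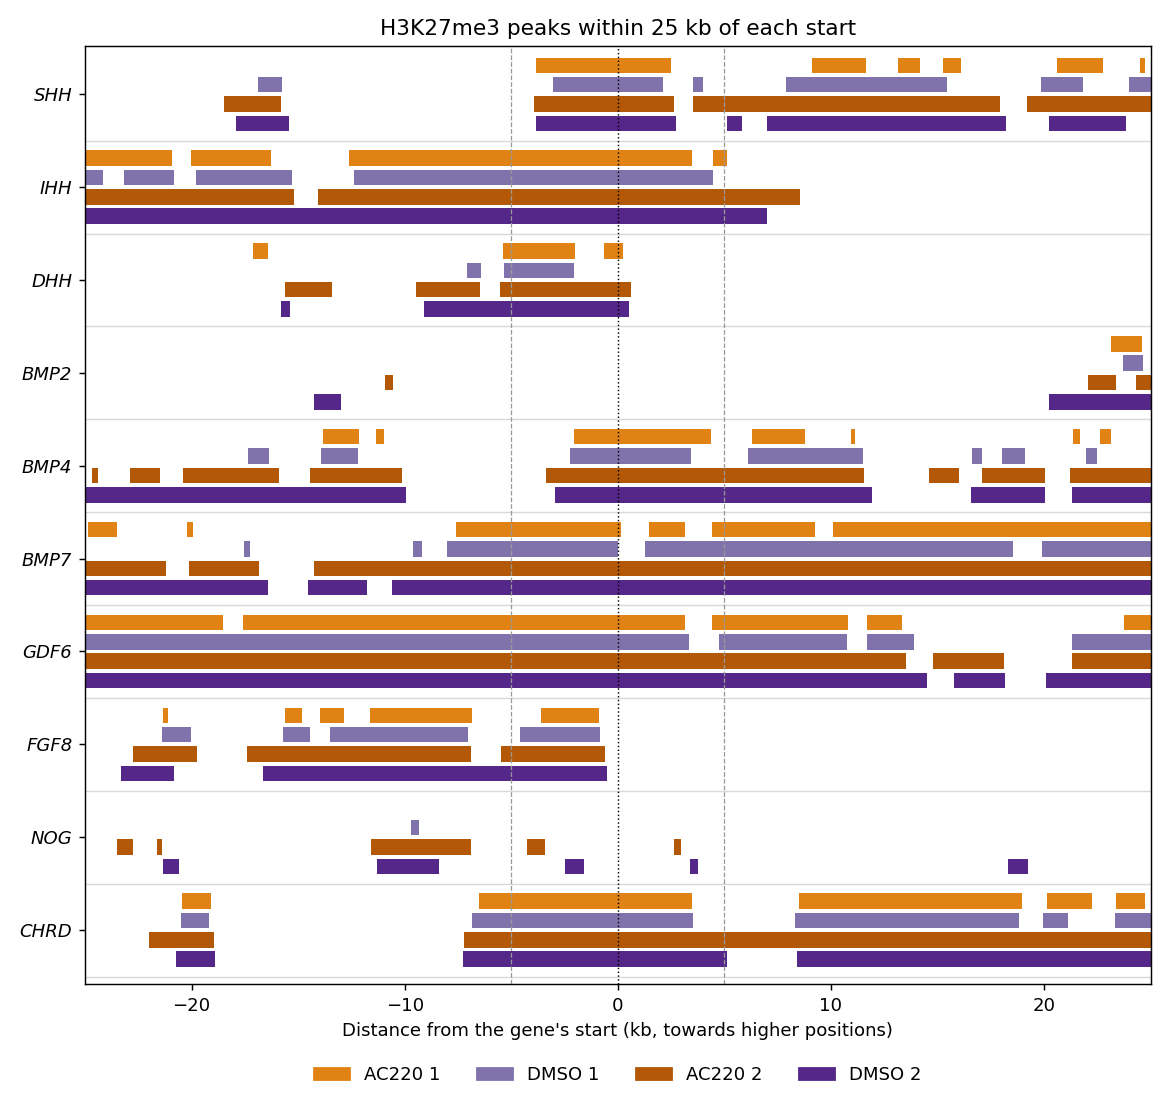
Deposited H3K27me3 peaks of the 4 libraries by distance from each start (kb, horizontal axis), with AC220 1, DMSO 1, AC220 2 and DMSO 2 from top to bottom in each gene. Bars are peaks cut at 25 kb, dashed lines mark 5 kb; BMP2 is bare within 5 kb in all libraries and the SHH peak keeps nearly the same edges in all.

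Among the hedgehog ligands, SHH (chromosome 7, start 155605000, band 7q36.3), the morphogen of limb and neural tube, carried a compact peak over its start. Counting kb from the start, negative towards lower positions, that peak ran from -3.83 to 2.49 in AC220 1 against -3.04 to 2.12 in DMSO 1. In set 2 it ran from -3.91 to 2.62 in AC220 2 against -3.85 to 2.71 in DMSO 2. Its lower edge thus varied by 0.871 kb and its upper edge by 0.591 kb over the 4 libraries, where the IHH peak varied by 17.3 kb and 5.05 kb. By the authors' -log10 q, 1.70% of all peaks scored higher within the AC220 1 list against 0.183% in DMSO 1, and 0.145% in AC220 2 against 0.129% in DMSO 2. Within 5 kb the covered share of SHH was 63.2% in AC220 1 against 56.4% in DMSO 1, and 80.0% in AC220 2 against 65.7% in DMSO 2. AC220 was above DMSO in each set, by 6.78 and 14.31 percentage points, although the 4 values interleave (DMSO 2 lay above AC220 1). In set 2 the extra bases lay in a second AC220 2 peak that began 3.54 kb above the start. The wider window gave no common direction: within 25 kb the share was 26.2% in AC220 1 against 34.5% in DMSO 1, and 58.8% in AC220 2 against 49.2% in DMSO 2. SHH is read from the minus strand, so the patches above the start lie upstream of it. They went on past the window, with 48.6% in AC220 1 against 62.8% in DMSO 1, and 65.8% in AC220 2 against 66.5% in DMSO 2, from 80 to 90 kb above.

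IHH (chromosome 2, start 219925000, band 2q35), the ligand of growing cartilage, was covered more widely. Within 5 kb its share was 90.2% in AC220 1 against 94.6% in DMSO 1, and 100% in both set 2 libraries. Within 25 kb it was 49.2% in AC220 1 against 49.0% in DMSO 1, and 64.8% in AC220 2 against 64.0% in DMSO 2. In that window the treatments were within 1 percentage point of each other in each set. The peak over the start was 16.1 kb wide in AC220 1 against 16.8 kb in DMSO 1, and 22.6 kb in AC220 2 against 36.7 kb in DMSO 2. The AC220 2 peak had a neighbour that ran from -29.8 to -15.2 kb, so nearly the same bases were listed as 2 peaks. The covered stretch reached well past the 6.50 kb that the gene spans in RefSeq.

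DHH (chromosome 12, start 49488000, band 12q13.12), the ligand of testis and peripheral nerve, had the least cover of the hedgehog ligands. Within 5 kb its share was 38.7% in AC220 1 against 29.6% in DMSO 1, and 56.2% in AC220 2 against 55.3% in DMSO 2. Within 25 kb it was 9.89% in AC220 1 against 7.89% in DMSO 1, and 22.8% in AC220 2 against 20.1% in DMSO 2. AC220 was higher in each set in both windows, by no more than 9.14 percentage points. The AC220 1 peak over the start was 0.866 kb wide at a -log10 q of 1.02, and 87.5% of that list scored higher. With only peaks of -log10 q of at least 2, the differences within 5 kb were 0.48 points in set 1 and 0.91 in set 2. Within 25 kb they were then 0.176 points in set 1 and -6.93 in set 2. The cover lay over the gene side of the start, which DHH, read from the minus strand, has at lower positions. No peak was listed above 0.621 kb in any library within the 25 kb.

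The BMP ligands were unlike each other. BMP2 (chromosome 20, start 6749000, band 20p12.3), a ligand of bone and heart formation, had no peak within 5 kb in any library. Its nearest peak lay 23.1 kb away in AC220 1 against 23.7 kb in DMSO 1, and 10.6 kb in AC220 2 against 13.0 kb in DMSO 2. Within 25 kb its share was 2.96% in AC220 1 against 1.92% in DMSO 1, and 4.78% in AC220 2 against 12.1% in DMSO 2. The cover farther out lay almost wholly above the start. From 25 to 250 kb above it 7.29% was covered in AC220 1 against 13.1% in DMSO 1, and 33.98% in AC220 2 against 47.5% in DMSO 2. Over the same distance below it no peak was listed in AC220 1 or DMSO 1, and the share was 1.40% in AC220 2 against 0.618% in DMSO 2.

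BMP4 (chromosome 14, start 54423000, band 14q22.2), a ligand of early mesoderm and eye, had a peak over its start and scattered patches farther out. The peak over the start was 6.45 kb wide in AC220 1 against 5.71 kb in DMSO 1, and 14.9 kb in each set 2 library. Within 5 kb the share was 64.5% in AC220 1 against 57.1% in DMSO 1, and 83.6% in AC220 2 against 79.6% in DMSO 2. AC220 was higher in each set there. Within 25 kb the order was turned round, with 23.9% in AC220 1 against 31.8% in DMSO 1, and 67.2% in AC220 2 against 74.2% in DMSO 2. The difference was -7.87 points in set 1 and -7.04 points in set 2. In set 2 it lay below the start, where DMSO 2 had a single peak from -40.5 to -9.95 kb that AC220 2 listed as several smaller peaks.

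BMP7 (chromosome 20, start 55841000, band 20q13.31), a ligand of kidney and eye development, lay in a long covered stretch. Within 25 kb its share was 61.6% in AC220 1 against 62.4% in DMSO 1, and 92.8% in AC220 2 against 93.9% in DMSO 2. At most 1.60% of tiled 50 kb windows were covered as much, in each of the 4 libraries. Within 5 kb it was 74.3% in AC220 1 against 87.8% in DMSO 1, and 100% in both set 2 libraries. The set 1 difference of -13.43 points came from gaps on the upper side of the start, where AC220 1 listed 3 peaks within 5 kb and DMSO 1 listed 2. BMP7 is a gene of 97.9 kb in RefSeq, so the 25 kb window holds part of it only.

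GDF6 (chromosome 8, start 97173000, band 8q22.1), a ligand of joint and skull formation, had the widest peak over its start of the 10 in every library. Within 25 kb its share was 73.1% in AC220 1 against 80.5% in DMSO 1, and 91.1% in AC220 2 against 93.5% in DMSO 2. The differences were -7.45 points in set 1 and -2.45 points in set 2. The peak over the start was 20.8 kb wide in AC220 1 against 40.9 kb in DMSO 1, and 51.1 kb in AC220 2 against 116 kb in DMSO 2. As listed it was narrower with AC220 in each set, but wider in AC220 2 than in DMSO 1, so the treatments overlap. In AC220 1 another peak ran from -37.5 to -18.5 kb, so nearly the same bases as in DMSO 1 were listed as 2 peaks. With peaks within 3 kb joined, the stretch over the start was 50.8 kb in AC220 1 against 51.4 kb in DMSO 1. In set 2 it was then 181 kb in AC220 2 against 274 kb in DMSO 2. Of all peaks listed in DMSO 2, only 0.0401% were wider than the one over the start. A peak of AC220 1, AC220 2 and DMSO 1 had its lower edge at -37.5, -37.6 and -37.5 kb, and in DMSO 2 the peak over the start ran on to -101 kb. Cover did not end there: from -60 to -50 kb GDF6 had 31.6% in AC220 1 against 16.4% in DMSO 1, and 100% in both set 2 libraries. Within 5 kb all libraries were covered over at least 86.1%.

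**Figure D2:**
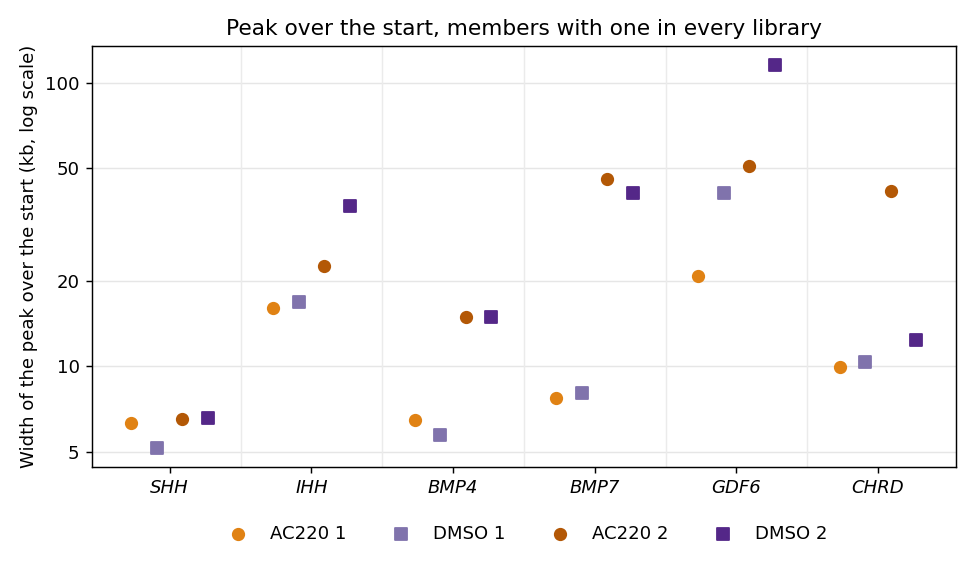
Width (kb, log axis) of the peak that lies over the start, for the 6 members that have one in every library. A short gap splits the AC220 1 stretch at GDF6, and only the part over the start is plotted. Circles are AC220 and squares DMSO, with set 1 left of set 2 in each gene; GDF6 runs from 20.8 kb in AC220 1 to 116 kb in DMSO 2, and SHH stays between 5.16 and 6.57 kb.

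FGF8 (chromosome 10, start 103536000, band 10q24.32), the growth factor of limb and midbrain organisers, was covered on 1 side only. Within 5 kb its share was 27.6% in AC220 1 against 37.7% in DMSO 1, and 43.9% in AC220 2 against 44.7% in DMSO 2. Within 25 kb it was 19.5% in AC220 1 against 25.7% in DMSO 1, and 36.8% in AC220 2 against 37.2% in DMSO 2. AC220 was lower in each set in both windows, with differences from -0.44 to -10.11 points. The upper edge of the peak beside the start varied by only 0.331 kb over the 4 libraries, and no peak was listed from there to 25 kb above the start in any of them. The island was isolated: from 25 to 250 kb on either side 1.21% was covered in AC220 1 against 1.39% in DMSO 1, and 2.24% in AC220 2 against 1.70% in DMSO 2.

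The antagonists differed widely in cover. NOG (chromosome 17, start 54671000, band 17q22), which encodes noggin, had no peak within 5 kb in AC220 1 or DMSO 1, and shares of 11.6% in AC220 2 against 12.6% in DMSO 2. Within 25 kb it was listed at 0% in AC220 1 against 0.762% in DMSO 1, and at 13.6% in AC220 2 against 11.7% in DMSO 2. The small peaks that set 2 listed nearest the start lay at different places, 2.66 kb above it in AC220 2 and 1.57 kb below it in DMSO 2. CHRD (chromosome 3, start 184098000, band 3q27.1), which encodes chordin, had shares within 5 kb of 84.6% in AC220 1 against 85.4% in DMSO 1, and 100% in both set 2 libraries. Within 25 kb it had 50.6% in AC220 1 against 50.2% in DMSO 1, and 70.5% in AC220 2 against 61.6% in DMSO 2. Its peak over the start was 9.96 kb wide in AC220 1 against 10.4 kb in DMSO 1, and 41.5 kb in AC220 2 against 12.4 kb in DMSO 2. AC220 2 had no gap above the start where DMSO 2 had one from 5.13 to 8.43 kb. The genes RBM33 beside SHH, NHEJ1 and CFAP65 beside IHH, RHEBL1 and LMBR1L beside DHH, LOC124903317 beside BMP4, NPM3 and OGA beside FGF8, and CLCN2, POLR2H and THPO beside CHRD lie within 25 kb of those genes in RefSeq, so part of a wide window can belong to a neighbour.

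**Figure D3:**
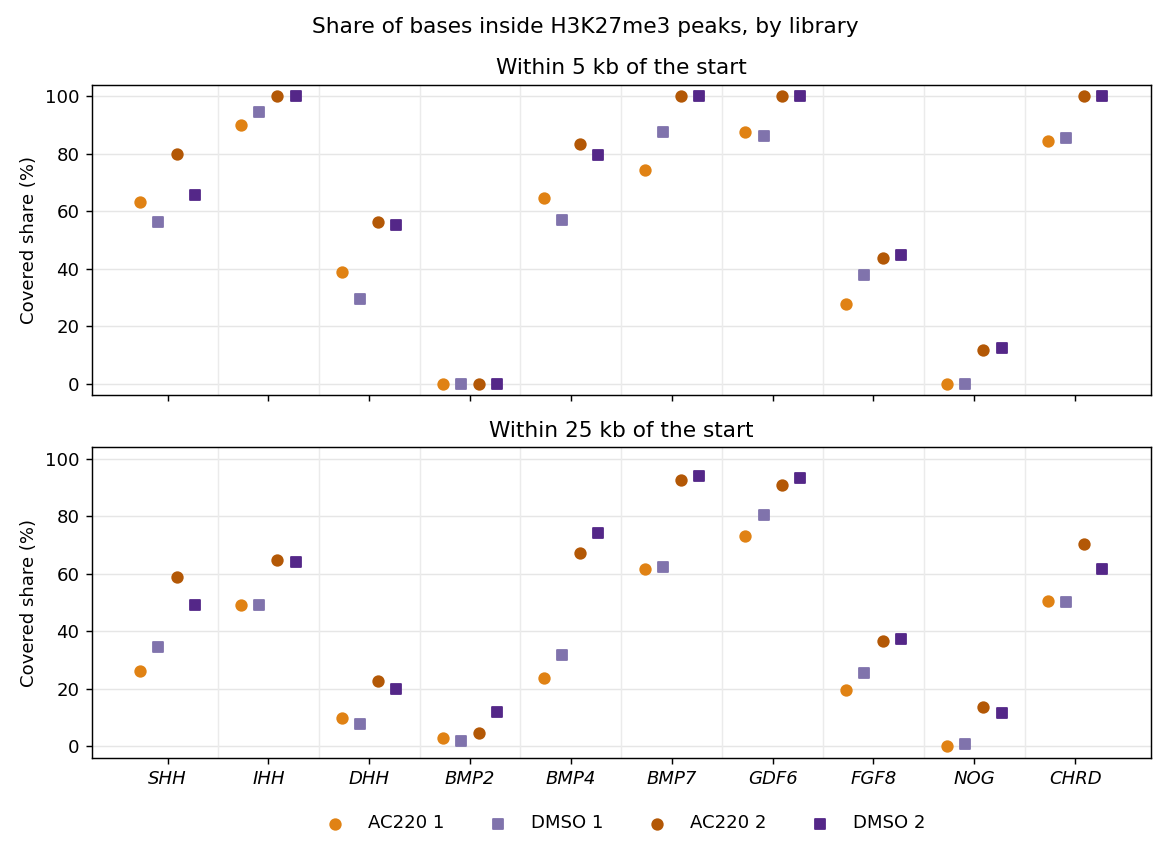
Covered share (%) of the window within 5 kb (top) and within 25 kb (bottom) of each start. Each point is 1 library, circles AC220 and squares DMSO, set 1 left of set 2; set 2 points lie above set 1 points in most genes, and 4 genes reach 100% in set 2 within 5 kb.

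The treatments were compared within each set. A window counted as lower or higher with AC220 when its covered share differed by at least 5 percentage points in the same direction in both sets. Within 25 kb, 1 of 10 members was lower (BMP4), none was higher and 9 were neither. Of all tiled 50 kb windows 8.15% were lower and 0.512% higher, and of the 12055 with a mean share of at least 25% over the 4 libraries, as 7 of the 10 members had, 31.7% were lower and 1.71% higher. Within 5 kb none was lower, 1 was higher (SHH) and 9 were neither. Of all tiled 10 kb windows 6.86% were lower and 1.48% higher, and of the 58831 with a mean share of at least 25%, as 8 of the 10 members had, 26.9% were lower and 5.02% higher. These counts rest on 10 genes, and no test was made of their distance from the background. The DMSO lists were also shortened, peaks of lowest -log10 q first, until they covered no more than the AC220 lists. Of the 50 kb windows 2074 were then lower and 1616 higher, in place of 4948 and 311. Of the 10 kb windows 11000 were then lower and 9860 higher, in place of 20817 and 4493, and BMP4 and SHH were still the members called. The SHH call was lost with peaks within 3 kb joined, and with starts 1 kb lower, where FGF8 was lower instead (-10.11 points in set 1 and -6.05 in set 2). The BMP4 call was lost with only peaks of -log10 q of at least 2 and with all lists at equal length, where its mean difference was 4.68 points. With peaks joined it was lost too, and GDF6 was the lower member (-6.02 points in set 1 and -6.40 in set 2). Within 5 kb, 4 members were at 100% in both set 2 libraries and BMP2 at 0% in all, so those 5 could not be called. NOG, at 0% in AC220 1 and DMSO 1, could not be called either. No call could likewise be made in the 14.1% of those 58831 windows that both set 2 libraries covered in full.

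**Figure D4:**
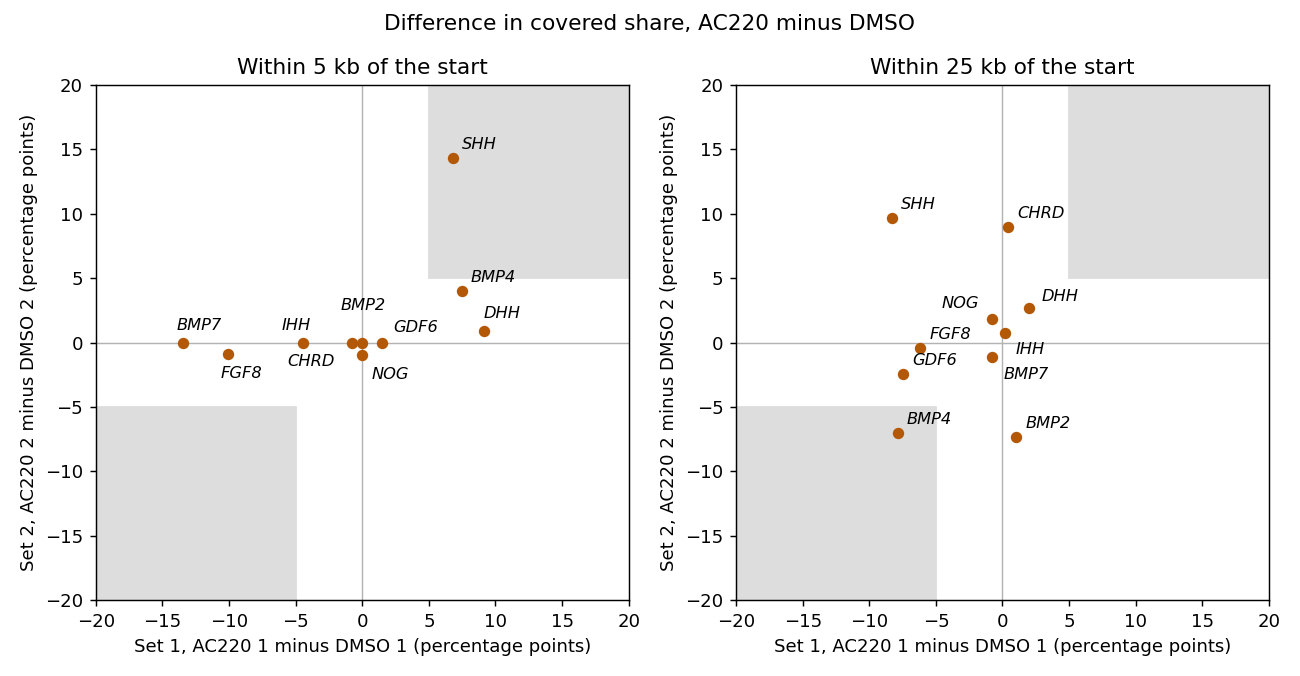
Difference in covered share (AC220 minus DMSO, percentage points) in set 1 (horizontal axis) and set 2 (vertical axis) for the 10 genes, within 5 kb (left) and 25 kb (right). Grey corners mark at least 5 points in the same direction in both sets; SHH alone lies there within 5 kb and BMP4 alone within 25 kb.

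Summed over the 10 windows of 25 kb either side, 500 kb in all, the peaks covered 158 kb in AC220 1 against 172 kb in DMSO 1, and 262 kb in AC220 2 against 259 kb in DMSO 2. That is a difference of -8.04% in set 1 and 1.06% in set 2, beside -17.2% and -15.9% over the whole lists. Within 5 kb, 100 kb in all, it was 53.1 kb in AC220 1 against 53.5 kb in DMSO 1, and 67.5 kb in AC220 2 against 65.8 kb in DMSO 2. The median difference within 25 kb was -0.76 points in set 1 and 0.16 points in set 2 for the members. It was 0 in both sets over all 50 kb windows, and -4.70 and -5.97 points over those with a mean share of at least 25%. The members' median includes DHH, BMP2 and NOG, whose mean share lay below 25%. Of the 7 members at or above it, FGF8 was the middle one in each set, at -6.17 points in set 1 and -0.44 in set 2. By sign alone, 6 members were lower and 4 higher in set 1, and 5 lower and 5 higher in set 2.

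In no member, in either window, did the mean difference exceed the larger SD of the treatments. With 2 libraries a treatment that SD is proportional to the distance between the sets, whose lists differ in length. For BMP4 within 25 kb the sets lay 42.9 points apart on average. The SD is therefore no measure of the spread of the differences within sets, which were -7.87 and -7.04 points for BMP4 and 2.0 and 2.67 points for DHH. BMP4 averaged 45.6% ± 30.6 with AC220 and 53.0% ± 30.0 with DMSO within 25 kb (SD, n = 2 each; exact permutation test, two-sided, p = 0.667). GDF6 averaged 82.1% ± 12.7 with AC220 and 87.0% ± 9.19 with DMSO (exact permutation p = 0.667, n = 2 each). CHRD averaged 60.6% ± 14.1 with AC220 and 55.9% ± 8.07 with DMSO (exact permutation p = 0.667, n = 2 each). Across the 10 members and both windows the exact p was 0.667 or 1, and 2 libraries against 2 cannot go below 0.33. These p-values show neither a difference nor its absence.

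Base by base, the members' windows shared a core. Of 284 kb covered in any library within 25 kb of the 10 starts, 143 kb were covered in all 4. GDF6 held 36.2 kb of that core, BMP7 27.7 kb, CHRD 23.9 kb and IHH 22.5 kb, while BMP2 held 0.305 kb and NOG none. No base was listed with AC220 alone in both sets. With DMSO alone in both sets 0.948 kb were listed, of which BMP4 held 0.465 kb and GDF6 0.416 kb. The DMSO lists were the longer ones in both sets, and the same split was not computed over the whole genome. These lengths are therefore no trait of the members. Both libraries of set 2, and neither of set 1, covered 55.6 kb. No base was covered in both libraries of set 1 and in neither of set 2.

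Within 25 kb, 8 of the 10 members, all but BMP2 and NOG, were covered more than their own flanks from 25 to 250 kb and more than their chromosome band in every library. The share of tiled windows that meet the same conditions was not computed, so this count has no background. The median flank was covered over 7.59% in AC220 1 against 8.17% in DMSO 1, and 26.4% in AC220 2 against 30.7% in DMSO 2. In bins of 10 kb the median share just above the start was 37.8% in AC220 1 against 45.8% in DMSO 1, and 88.1% in AC220 2 against 65.6% in DMSO 2. From 10 to 20 kb above it was 1.01% in AC220 1 against 14.9% in DMSO 1, and 29.3% in AC220 2 against 31.5% in DMSO 2. From 20 to 30 kb above it was higher again, at 15.9% in AC220 1 against 19.8% in DMSO 1, and 58.9% in AC220 2 against 73.3% in DMSO 2. A second high bin lay from -120 to -110 kb in DMSO 1 at 19.9%, in AC220 2 at 57.9% and in DMSO 2 at 73.5%. In AC220 1 that bin was at 5.99%, below the 14.1% from -90 to -80 kb. The decline with distance was thus uneven, although the highest bin of each library adjoined the start.

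**Figure D5:**
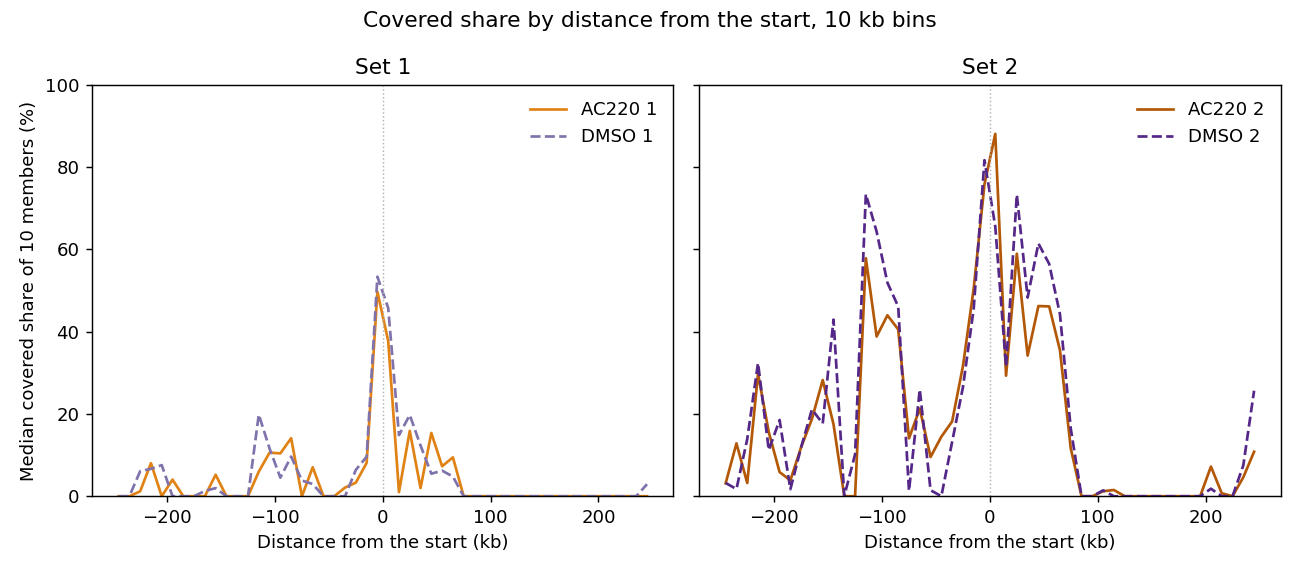
Median covered share of the 10 genes (%, vertical axis) in 10 kb bins up to 250 kb from the start (kb, horizontal axis), for set 1 (left) and set 2 (right). Solid lines are AC220 and dashed lines DMSO; every library peaks in the bins beside the start.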

How the data were processed

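H3K27me3 chromatin immunoprecipitation libraries of MOLM14 were analysed through 1 deposited broad peak list each. Per the submitters' processing notes, which give no roles or settings, BWA 0.7.10-r789 and MACS2 2.1 were used. The fold enrichment of each peak is the authors' ratio to a background whose source is not given. Its p-value and q-value are deposited as -log10 values, and the deposited score is 10 times -log10 q, rounded down, in all but 1 to 10 peaks of each list. They served only to rank, filter or describe peaks inside 1 list. The smallest deposited -log10 q was 1.00. Whether inputs or Drosophila reads entered the calls, and the genome build, are not given in the sources used here. On chromosome 1 the highest peak end, 249236554, lies within the GRCh37 length of 249250621, and every member's start falls in its textbook band of the table in circlize 0.4.16.

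Covered shares were computed with pandas 2.3.3 and numpy 2.4.6 under Python 3.11.15, and figures drawn with matplotlib 3.10.9. Distances count from starts given to 1 kb, and positions count from 1. AC220 and DMSO were compared within each replicate number and by an exact permutation test over the 6 assignments of the 4 libraries. The covered-share code was tested on simulated data. Alternatives were peaks with -log10 q of at least 2, trimmed lists, peaks joined over 3 kb, starts moved by 1 kb, other thresholds and single libraries left out. All 10 members are named. Members and lists were chosen with earlier results of these data known. The planned receptors, transducers and other genes of the pathways were not analysed, because their starts on GRCh37 were not at hand.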

Additional observations from a re-analysis of the deposited data

How the results depend on the processing

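Depth is unknown, 2 libraries a treatment limit every comparison, and starts are known to 1 kb. The start lay inside a peak in all libraries for 6 members, and for 6 or 7 without any single library. That count was 5 with peaks of -log10 q of at least 2, 5 with starts 1 kb up and 7 with starts 1 kb down. Within 25 kb, 1 member was lower in both sets. That count was 0 with peaks of -log10 q of at least 2, 0 with all lists at equal length, 2 at a threshold of 1 point and 0 at 10 points; the count of higher members, 0, was 1 at 1 point. Within 5 kb the count of higher members, 1, was 0 with peaks within 3 kb joined, 0 with starts 1 kb down, 2 at 1 point and 0 at 10 points, and the count of lower members, 0, was 1 (FGF8) with starts 1 kb down. With peaks joined the count within 25 kb was still 1, but the member was GDF6 and not BMP4. Without 1 library the complete set alone gave 2 to 4 lower and 0 to 2 higher within 25 kb, and 0 to 2 lower and 1 to 3 higher within 5 kb. Mean differences within 25 kb changed sign as follows, in points. With peaks of -log10 q of at least 2 they were -3.55 for IHH, -3.38 for DHH, -3.08 for NOG and -7.76 for CHRD. With the DMSO lists trimmed to the AC220 lengths, BMP7 was at 1.81. At equal length DHH was at -2.46, BMP2 at 1.48, BMP4 at 4.68, BMP7 at 3.30 and NOG at -0.38. With peaks joined, SHH was at -2.90 and IHH at -1.46. With starts moved, SHH was at -0.048 (up) and NOG at -0.19 (down). Without 1 library SHH ranged from -8.31 to 9.64, BMP2 from -7.30 to 1.04 and NOG from -0.76 to 1.84. The cause of these changes was not tested. GDF6 and FGF8 kept their negative sign under each of these settings. The numbers 1 and 2 are only shared labels. With the replicate number as a block the mean differences were the same, for example -7.45 points for BMP4 (exact sign-flip p = 0.5, the smallest it allows), and over all members p was 0.5 or 1. Deviations of AC220 1 and DMSO 1 from their treatment means correlated at 0.899 over 60716 windows. With 2 libraries a treatment, such a deviation only follows the distance between the sets. Set 2 covered 2.59 times the length of set 1 with AC220 and 2.55 times with DMSO. The correlation therefore cannot show whether the numbers mark pairs.

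Background counts moved with the settings. Of 50 kb windows, 4948 were lower and 311 higher. They were 11558 and 2099 at 1 point, 1759 and 24 at 10 points, 2219 and 205 with -log10 q of at least 2, 2074 and 1616 with DMSO lists trimmed, and 1481 and 1233 at equal length. With peaks joined, a setting added after seeing the data, 948 were higher. Of 10 kb windows, 20817 were lower and 4493 higher. At 1 point 9089 were higher, at 10 points 11345 were lower and 1709 higher, with -log10 q of at least 2 they were 5503 and 1187, with DMSO lists trimmed 11000 and 9860, at equal length 5148 were lower, and with peaks joined 13027 were lower.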
